A study of Saccharomyces cerevisiae with 8 samples.

Results

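Base excision repair removes damaged bases from DNA. The mutants of 7 genes of this pathway, APN1, APN2, NTG1, NTG2, OGG1, UNG1 and MAG1, were followed through a competitive screen of barcoded yeast mutants in selenomethionine (SeMet), the selenium analog of methionine. They were taken by name, as the strains whose probes carry one of these gene symbols. All 7 were found among the 5100 names of the table, of which 4749 had a value, and they were represented by 15 probes of the 13084 that carry 1 symbol. Each had a value on all 8 arrays.

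In base excision repair a DNA glycosylase recognizes an altered base and cuts it from the sugar, which leaves an abasic site. The glycosylases differ in the bases they remove: Ung1 takes out uracil, Mag1 takes out alkylated bases such as 3-methyladenine, Ogg1 takes out 8-oxoguanine, and the paralogs Ntg1 and Ntg2 take out oxidized pyrimidines and can also nick the strand. An AP endonuclease, Apn1 for the most part and Apn2 to a lesser extent, then opens the strand at the abasic site, after which a polymerase fills the gap, the flap endonuclease Rad27 trims the displaced end and a ligase seals it. In yeast, nucleotide excision repair and structure-specific nucleases also process abasic sites.

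The pool held haploid strains of the deletion collection mixed with the DAmP collection, in which the mRNA of an essential gene is destabilized, in the BY4741 background (MATa his3 leu2 met15 ura3), so that every strain, in every culture, was a methionine auxotroph growing in medium that contained methionine and cysteine. On 3 arrays, DNA of the pool after 10 generations with 20 µM SeMet (Cy3) was hybridized against DNA of the untreated pool (Cy5), and 2 arrays held the same comparison for 12 µM SeMet, with the dyes in the same order. On a further 3 arrays the untreated pool after growth, for 16 h by the labels (Cy3), was compared with the pool at time 0 (Cy5). Arrays of a group were labelled as biological replicates. Values are log2 ratios, the mean of the probes of a strain: below 0 at 20 or 12 µM means that the mutant was rarer in SeMet than without it (the fitness score), and below 0 in the growth comparison means that it fell behind the pool without SeMet (the growth score). No dye swap was made in any group, so an effect of the dye on a tag and an effect of the treatment cannot be told apart. Between 4353 and 4722 strains had a value per array, arrays of a group correlated across strains at r from 0.602 (12 µM) to 0.843 (growth), and the median SD of a strain between arrays was 0.247 at 20 µM, 0.162 at 12 µM and 0.229 in growth. The number of arrays limits the precision of each score.

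The mutants of base excision repair stayed close to the pool at 20 µM SeMet. Their mean scores ran from −0.64 for APN2 to 0.10 for OGG1, with a median of −0.08 against −0.09 over all strains. The score limit used in the study to call a strain sensitive or resistant, 1.5 to either side of 0, was passed by 0 of 7 mutants, against 8.4% of all strains (3.06% below and 5.34% above). Of the 7, 6 lay within 0.5 of 0, where 69.7% of all strains lay. By limma, 1 of 7 was lower (APN2) and 0 were higher at an adjusted p under 0.05, beside 13.8% of all 4536 strains called lower and 12.5% called higher. A single call among 7 mutants is a share (14.3%) near that background, and 1 of 7 also had an unadjusted p under 0.05, against 38.9% of all strains. The 95% intervals of all 7 means reached from −1.06 to 0.46, inside the limit of 1.5.

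**Figure D1:**
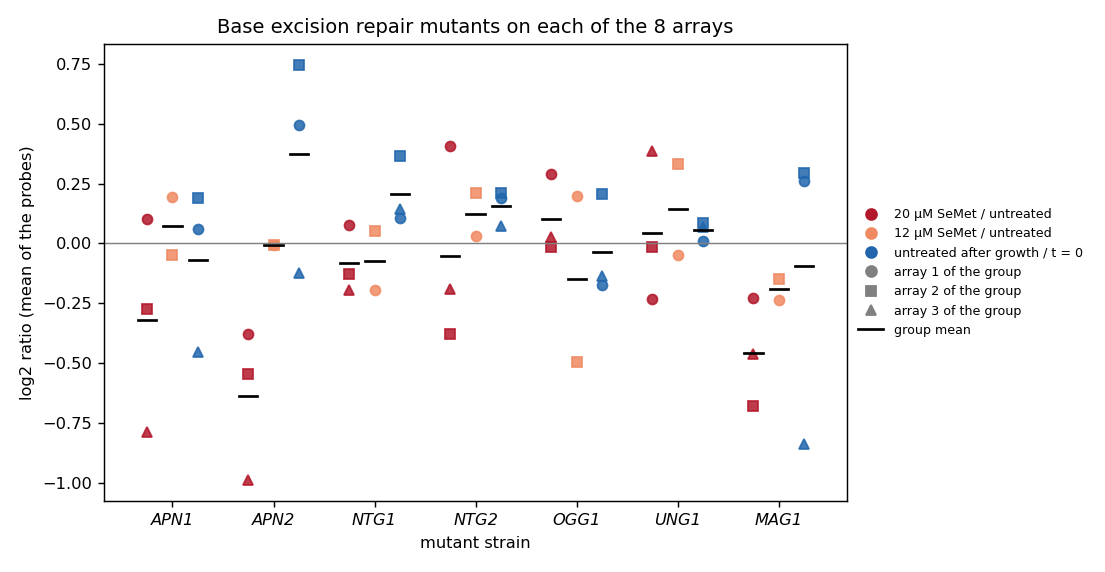
The vertical axis gives the log2 ratio of each mutant (mean of its probes) on each of the 8 arrays, in columns for 20 µM SeMet over untreated (dark red), 12 µM SeMet over untreated (orange) and untreated after growth over time 0 (blue), with the symbol showing the array of the group and bars the group means. The 3 values of APN2 at 20 µM lie below 0, between −0.38 and −0.99, while the values of NTG1, NTG2, OGG1 and UNG1 lie on both sides of 0.

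Among the glycosylases, the mutant of UNG1 (YML021C), the uracil-DNA glycosylase, scored −0.23, −0.02 and 0.38 on the 3 arrays of 20 µM, a mean of 0.05 ± 0.31 (SD, n = 3). Its values lay on both sides of 0, and the interval of the mean ran from −0.28 to 0.37 (adjusted p = 0.837, limma). At 12 µM it scored −0.05 and 0.33, and its growth scores of 0.0093, 0.09 and 0.07 were the closest together of the 7 mutants (0.06 ± 0.04). These close means hide a spread between probes. Probe 1 gave −0.04, 0.17 and 0.38 on the growth arrays, and probe 2 gave 0.05, −0.0040 and −0.24.

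The mutant of MAG1 (YER142C), the 3-methyladenine glycosylase, scored −0.23, −0.68 and −0.46 at 20 µM. Like APN2 it was below 0 on all 3 arrays, a pattern found in 2 of 7 mutants and in 36.5% of the 4409 strains with 3 values. Its mean of −0.46 ± 0.23 (SD, n = 3) was lower than 0 by more than the spread between arrays but did not pass the test (95% interval −0.96 to 0.05, adjusted p = 0.165, limma). At 12 µM it was again below 0 on both arrays, at −0.24 and −0.15. Its growth scores did not hold together, with 0.26 and 0.30 on the first arrays and −0.84 on array 3, where its 2 probes gave −0.06 and −1.61. That SD of 0.64 enters the error of the other groups as well, since the fit shares one spread per strain over the groups.

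Neither the oxidized purine nor the oxidized pyrimidine enzymes had a score apart from 0. The mutant of OGG1 (YML060W), the 8-oxoguanine glycosylase, is known from 1 probe only. It scored 0.29, −0.01 and 0.03 at 20 µM (0.10 ± 0.16, 95% interval −0.26 to 0.46, adjusted p = 0.672, limma). At 12 µM the arrays disagreed, with 0.20 and −0.49. The mutant of NTG1 (YAL015C), an endonuclease III enzyme of mitochondria and nucleus, scored 0.08, −0.13 and −0.19 at 20 µM, a mean of −0.08 ± 0.14 with an interval of −0.34 to 0.18 (adjusted p = 0.633, limma). The mutant of its nuclear paralog NTG2 (YOL043C) scored 0.41, −0.38 and −0.19, a mean of −0.05 ± 0.41 with an interval of −0.41 to 0.30 (adjusted p = 0.823, limma). With each array centred on its median, the means of NTG1 and NTG2 turned to 0.0038 and 0.03, so neither has a direction.

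The AP endonucleases act after all of these glycosylases. The mutant of APN1 (YKL114C), the major enzyme, scored 0.10, −0.27 and −0.79 at 20 µM. The arrays differed widely, and the mean of −0.32 ± 0.45 (SD, n = 3) did not pass the test (95% interval −0.76 to 0.12, adjusted p = 0.254, limma). Its 2 probes were unlike at 20 µM: the first gave 0.06, −0.49 and −1.34 and the second 0.14, −0.06 and −0.24. At 12 µM the mutant scored 0.19 and −0.05, and in growth 0.06, 0.19 and −0.45. On growth array 3 its first probe gave 0.25 and its second −1.15.

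The mutant of APN2 (YBL019W), the second AP endonuclease, had the lowest score of the 7. It gave −0.38, −0.54 and −0.99 at 20 µM, all below 0, a mean of −0.64 ± 0.31 (SD, n = 3; 95% interval −1.06 to −0.21), which is 0.643 times its abundance in the untreated pool (0.479 to 0.863) relative to the other strains. It passed the test (SE 0.18, adjusted p = 0.0364, limma), and 11.3% of strains scored lower. The call was lost when any array of 20 µM was left out, with means of −0.77, −0.68 and −0.46 without array 1, 2 or 3 and adjusted p = 0.0526, 0.0856 and 0.204 (limma). It was also lost when only the arrays of 20 µM entered the fit (adjusted p = 0.0624, limma). At 12 µM both arrays gave a mean close to 0, −0.0059 and −0.0054. This close match of the means hides a spread among probes, from −0.16 to 0.15 on array 1 and from −0.35 to 0.39 on array 2.

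APN2 is the member with the most probes, 4 where the others have 1 or 2, as have 1260 names in the table. The files do not say whether these probes belong to 1 strain or to several. At 20 µM the 4 probe means were −0.58, −0.55, −0.51 and −0.60, but probes 2 and 3 had no value on array 3, so the score of −0.99 there rests on probes 1 and 4, at −1.04 and −0.94. Over arrays 1 and 2, which all 4 probes share, the means were −0.36, −0.55, −0.51 and −0.44. In growth the probes were less alike: probes 2 and 3 gave 0.91 and 1.10, and probes 1 and 4 gave 0.24 and 0.11 (0.24 and 0.23 over arrays 1 and 2). This range of 0.98 comes from 4 probes with values on unequal sets of arrays. The median range over all names was 0.26, where 3710 names have 2 probes and names with 1 probe enter as 0. The growth scores of the mutant were 0.50, 0.75 and −0.12, so that arrays 1 and 2 were high and array 3 was not. On array 3 only probe 4 had a value, and on arrays 1 and 2 that probe gave 0.15 and 0.32. The mean growth score of 0.37 ± 0.45 (95% interval −0.05 to 0.80, adjusted p = 0.169, limma) therefore compares different probes between arrays. With only the probes that had a value on every array of a group, an alternative chosen after seeing these values, it was 0.11 (adjusted p = 0.617, limma), and the score at 20 µM was −0.59 (adjusted p = 0.0186, limma).

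The strains whose values over the 8 arrays lay closest to those of APN2, by Euclidean distance among 4208 strains, were SIR1 at 0.450, MSH3 at 0.467 and TLG1 at 0.511, against a median distance of 1.58. Their means at 20 µM, at 12 µM and in growth were −0.51, −0.06 and 0.37 for SIR1, a silencing factor, −0.48, −0.11 and 0.28 for MSH3, a mismatch repair protein, and −0.57, 0.07 and 0.45 for TLG1, a SNARE of the trans-Golgi network and endosomes.

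**Figure D2:**
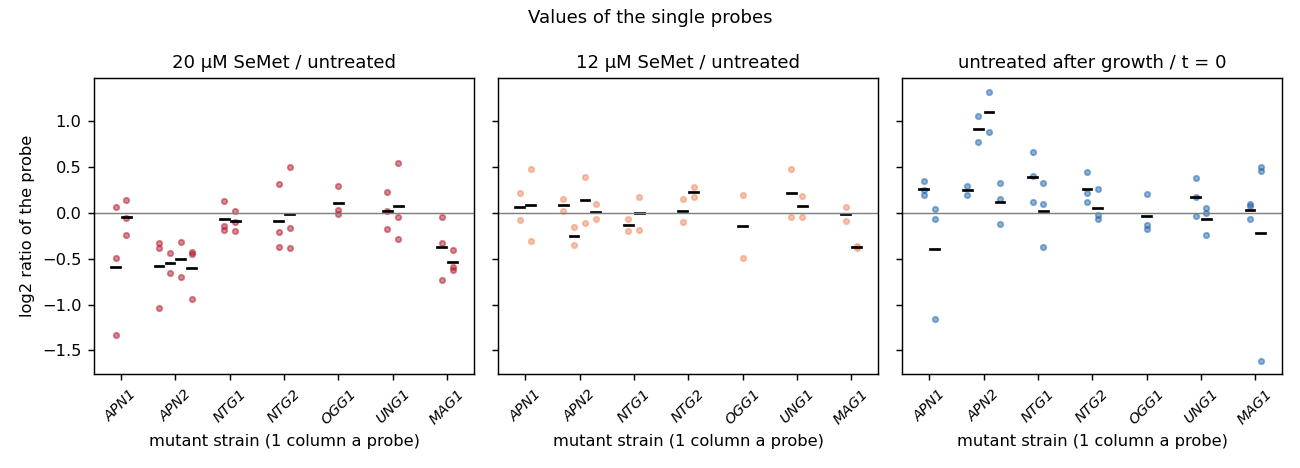
Each point is the log2 ratio of 1 probe on 1 array at 20 µM SeMet (left), at 12 µM (middle) and in growth (right), with 1 column for each probe of a mutant and bars for the probe means. The 4 columns of APN2 lie together at 20 µM and apart in growth, where columns 2 and 3 have means of 0.91 and 1.10, and the low point of MAG1 in growth, −1.61, comes from 1 probe on 1 array.

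Mutants next to each other in the order of their means were close at 20 µM. From the lowest to the highest mean at 20 µM the order was APN2, MAG1, APN1, NTG1, NTG2, UNG1 and OGG1. Each of the 6 steps between neighbours in this order was smaller than the larger of their SDs. Farther apart in the order, the array values did not overlap in 5 of 21 pairs: all values of APN2 lay below all those of NTG1, UNG1 and OGG1, and all values of MAG1 lay below all those of NTG1 and OGG1. These differences were not tested, and the share of such pairs among all strains was not computed. At 12 µM the values did not overlap in 5 of 21 pairs, and in growth in 1 of 21. With 2 arrays at 12 µM an overlap is less likely than with 3, so the counts at 12 and 20 µM cannot be compared. No share among all strains was computed for these groups. Steps between neighbours were also within the larger SD in 6 of 6 cases at 12 µM and in 5 of 6 in growth, where the step of 0.10 from UNG1 to NTG2 was larger than either SD. On array 2 of 20 µM all 7 mutants were below 0, on array 1 there were 3 and on array 3 there were 5, with array medians over all strains of −0.06, −0.04 and −0.15.

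Enzymes that share a step were also set side by side on the same array. APN1 was above APN2 on 4 of 5 SeMet arrays, by 0.22 ± 0.19 on average (exact sign-flip permutation test, two-sided, p = 0.125, adjusted p = 0.25 over the 2 pairs compared). At 20 µM alone APN1 was above APN2 on 3 of 3 arrays, by 0.32 ± 0.15 (exact permutation p = 0.25, the smallest that 3 arrays can give). In growth the order was the other way on 3 of 3 arrays, with APN1 minus APN2 at −0.44 ± 0.11, on array 3 from 1 probe of APN2 (exact permutation p = 0.25, again the smallest possible). On growth array 3 the probes of APN1 gave 0.25 and −1.15, on either side of the APN2 probe at −0.12. The order on that array therefore depends on the probe of APN1. NTG1 minus NTG2 was −0.09 ± 0.23 over the 5 SeMet arrays, with NTG1 above NTG2 on 1 of 5 (exact permutation p = 0.4375, adjusted p = 0.4375). The smallest p that 5 arrays allow is 0.0625, so neither pair could have passed 0.05. The test also pools the arrays of both concentrations and takes them as independent. Arrays of the same experiment may share an untreated culture, so that independence is not given. The pool holds strains with 1 of these genes changed, and a mutant that lacks both enzymes of a pair was not measured.

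At 12 µM SeMet the mean scores of all strains had an SD of 0.415, against 0.835 at 20 µM. By limma 1.01% of 4368 strains were called at 12 µM, from 2 arrays in place of 3. Of the base excision repair mutants 0 of 7 were called, and 0 had an unadjusted p under 0.05 (11.8% of all strains had one). Their means ran from −0.19 for MAG1 to 0.14 for UNG1, with adjusted p from 0.833 to 0.997 (limma) and interval bounds from −0.81 to 0.61. APN1 averaged 0.07 ± 0.17, NTG1 −0.07 ± 0.17, NTG2 0.12 ± 0.13 and OGG1 −0.15 ± 0.49 (SD, n = 2). The intervals for 12 µM were wider than those for 20 µM, having 2 arrays in place of 3.

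Between 20 and 12 µM, 0 of 7 mutants differed by limma, with a background of 0% (0 of 4364 strains). At an unadjusted p under 0.05 there were 0 of 7 mutants and 12.9% of all strains. The difference was largest for APN2, at −0.63 (95% interval −1.30 to 0.04, adjusted p = 0.410, limma), followed by APN1 at −0.39 and MAG1 at −0.26. For OGG1 it was 0.25, and for NTG2, UNG1 and NTG1 it was −0.18, −0.10 and −0.0099. The narrowest of the 7 intervals was that of NTG1, from −0.43 to 0.41, and the lowest and highest bounds of any of them were −1.30 (APN2) and 0.82 (OGG1).

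Without SeMet the mutants also kept pace with the pool. By limma 0 of 7 had a growth score apart from 0, with 0 of 7 at an unadjusted p under 0.05, where 26.9% of 4628 strains were called and 40.6% had such a p. Means ran from −0.09 ± 0.64 for MAG1 to 0.37 ± 0.45 for APN2, and the bounds of the intervals from −0.60 to 0.80. NTG1, NTG2 and UNG1, at 0.20 ± 0.14, 0.16 ± 0.07 and 0.06 ± 0.04, were above 0 on all 3 growth arrays, which makes 3 of 7 mutants beside 38.6% of 4333 strains. This holds for the means of probes, not for each probe. On growth array 3, probe 2 was at −0.37 for NTG1, −0.07 for NTG2 and −0.24 for UNG1. Probe 1 was there at 0.66, 0.22 and 0.38. The median of the 7 was 0.06, against 0.08 over all strains. Without growth array 3, the one with a single APN2 probe, APN2 was called higher (0.62, adjusted p = 0.0495, limma).

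**Figure D3:**
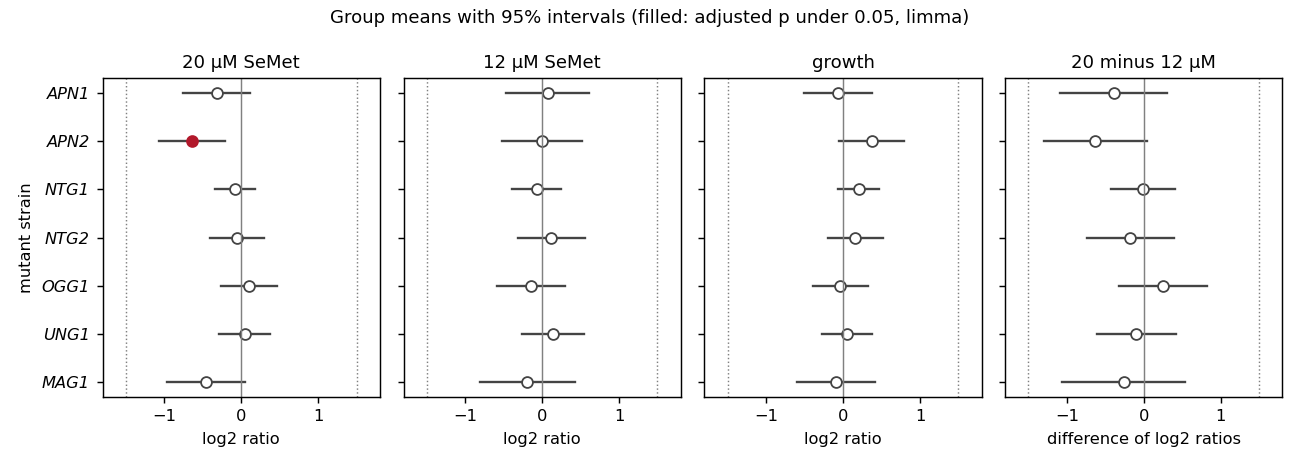
Points are the means of the 7 mutants and bars their 95% intervals from limma, on log2 axes, for 20 µM SeMet, 12 µM SeMet, growth and the difference between 20 and 12 µM, with dotted lines at 1.5 to either side of 0. The filled point, APN2 at 20 µM, is the one mean with an adjusted p under 0.05, and every interval lies inside the dotted lines.

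Some mutants of the steps that follow the AP endonucleases had larger scores. Of 14 such genes, 13 were scored at 20 µM, and 2 were lower, 3 higher and 8 not called. Over all strains 13.8% were called lower and 12.5% higher. The median of the list was −0.05, against −0.09 over all strains. The mutant of RAD27 (YKL113C), the flap endonuclease, scored 1.35, 1.81 and 1.86 on the 3 arrays, far above every value of the base excision repair mutants (mean 1.67 ± 0.28, adjusted p = 0.000244, limma). It was higher at 12 µM as well, at 1.21 and 0.96 (1.08 ± 0.17, adjusted p = 0.0421, limma; not called without either 12 µM array). RAD27 was the one mutant called at 12 µM of 32 related genes tested there, beside 1.01% of all strains. Its growth score was −0.42 ± 0.28 (adjusted p = 0.0726, limma). RAD27 is the next gene to APN1 on the chromosome, and the mutants of these neighbours scored 1.67 and −0.32 at 20 µM.

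DNA polymerase epsilon, which can fill the gap, had 3 subunits with a score. The mutant of the catalytic subunit POL2 was at 0.21 ± 0.21 at 20 µM (adjusted p = 0.253, limma), and DPB2 had no value. The mutant of its histone-fold subunit DPB4 scored 1.69, 1.23 and 3.06 at 20 µM (2.00 ± 0.95, adjusted p = 0.00239, limma), against 0.0049 and 0.31 at 12 µM. The mutant of the partner subunit DPB3 scored −0.91, −1.30 and −0.89 (−1.04 ± 0.23, adjusted p = 0.00404, limma), and the values of DPB4 and DPB3 did not overlap. Deletion and DAmP strains were not told apart, so the scores of these subunits may come from mutants of different kinds. The score of POL2 need not reflect loss of the subunit. The other mutant called lower was that of POL32, a subunit of DNA polymerase delta, at −0.46 ± 0.24 (adjusted p = 0.0482, limma; not called without any one 20 µM array). HNT3, the yeast aprataxin, which removes AMP from failed ligation ends, scored 0.80 ± 0.44 from 1 probe (adjusted p = 0.0153, limma; not called without 20 µM array 3) and 0.82 ± 0.25 in growth (adjusted p = 0.0163, limma; not called without growth array 1 or 3). In growth, 3 of 13 of these mutants were higher and 0 lower, beside 14.2% and 12.7% of all strains. Those higher in growth included the catalytic subunits POL3 (0.78) and POL2 (0.42, not called without any one growth array). Without growth array 1, 2 or 3 the number higher was 1, 2 or 1. At 20 µM the number lower was 1 without any one of the arrays.

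Of 13 mutants of nucleotide excision repair and of nucleases for flaps and branched DNA, 2 were lower and 1 higher at 20 µM. The shares over all strains were 13.8% and 12.5%, and the median of the list was −0.07. The mutant of RAD23, which binds damaged DNA with Rad4 and carries a ubiquitin-like domain, scored −1.19, −1.19 and −1.48 (−1.29 ± 0.17, adjusted p = 0.000598, limma). RAD7, of the complex for repair of silent DNA, scored −0.83 ± 0.54 (adjusted p = 0.0129, limma; −0.52 without 20 µM array 3). RAD1 and RAD10 form one nuclease that can also clear blocked ends at abasic sites. The mutant of RAD1 was higher at 0.72 ± 0.14 (adjusted p = 0.00247, limma), and the mutant of RAD10 was at 0.10 ± 0.15 (adjusted p = 0.576, limma); the difference between the 2 was not tested. In growth 0 of 13 were called, with 3 at an unadjusted p under 0.05, beside 26.9% and 40.6% of all strains.

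Of 5 mutants of base avoidance and mismatch repair, 2 were lower and 0 higher at 20 µM, beside 13.8% and 12.5% of all strains. Their median was −0.29. PCD1, a diphosphatase that hydrolyses an oxidized guanine nucleotide as well as coenzyme A, scored −0.85 ± 0.59 (adjusted p = 0.0168, limma; −0.51 without 20 µM array 3) and 0.67 ± 0.15 in growth (adjusted p = 0.0432, limma; not called without any one growth array). MSH3, a mismatch recognition subunit for loops, scored −0.48 ± 0.29 (adjusted p = 0.0473, limma; not called without any one 20 µM array). Its partner in other mismatches, MSH6, was at −0.29 at 20 µM and 0.87 ± 0.55 in growth (adjusted p = 0.0180, limma; not called without growth array 3). The number lower was 1 without any one array of 20 µM. Direct reversal needs no base excision: of its 2 genes, the methyltransferase MGT1 was at 0.13 at 20 µM and higher in growth (0.69 ± 0.26, adjusted p = 0.00640, limma). At 20 µM 0 of 2 were called, with 0 at an unadjusted p under 0.05, beside 26.3% and 38.9% of all strains. Together, 6 of the 33 related mutants were lower and 4 higher at 20 µM, a share of 30.3% beside 26.3% of all strains, and 0 were lower and 6 higher in growth, 18.2% beside 26.9%. In a fit to the 20 µM arrays alone, the calls of POL32 (adjusted p = 0.102), HNT3 (0.0575), RAD7 (0.0733), PCD1 (0.0821) and MSH3 (0.111) were lost (limma).

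**Figure D4:**
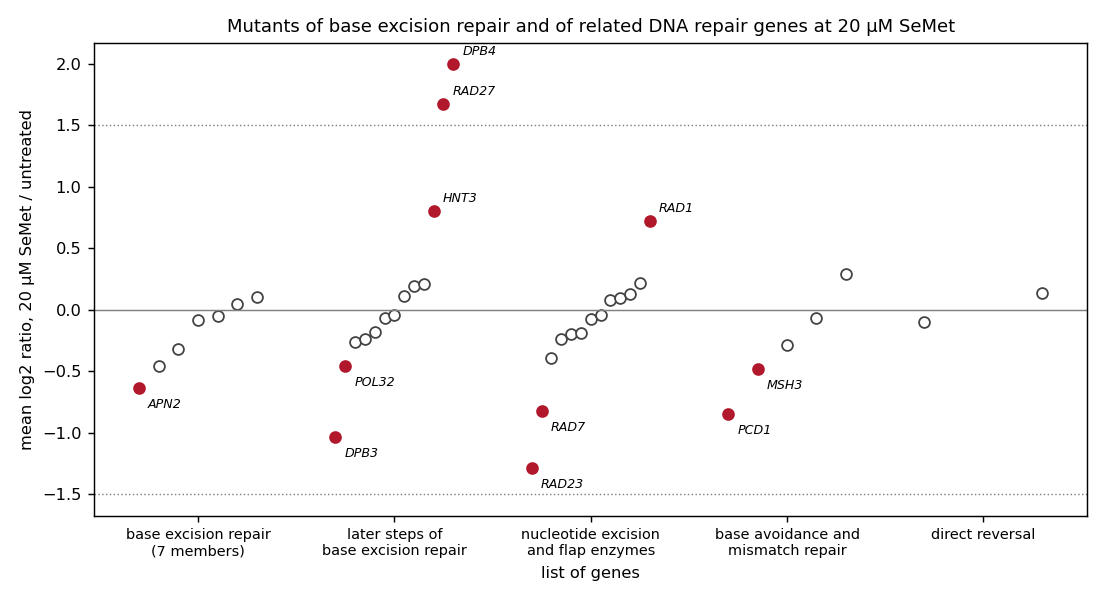
The vertical axis gives the mean log2 ratio of each mutant at 20 µM SeMet over untreated, in columns for base excision repair and the 4 lists of related genes, ordered by value, with filled points for an adjusted p under 0.05 (limma) and dotted lines at 1.5 to either side of 0. The 7 base excision repair mutants lie between −0.64 and 0.10, while DPB4 at 2.00 and RAD27 at 1.67 are the points above the upper line and no point is below the lower one.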

How the data were processed

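For each probe of the custom Agilent barcode arrays a log2 ratio was deposited, obtained by the authors from GenePix Pro images and normalized in R. The normalization and background correction are not given in the sources used here, and no background signal comes with them. They were used as deposited, with the probes of a gene symbol averaged on each array. Names, locus tags and neighbouring genes come from RefSeq's annotation and the platform's probe table. Deletion and DAmP strains of a name were not told apart.

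A moderated linear model (limma 3.58.1, R 4.3.3, functions lmFit and eBayes) with a mean for each of the 3 groups was fitted to the 8 arrays. It gave two-sided tests of each mean against 0 and of 20 µM against 12 µM. P-values were adjusted by Benjamini-Hochberg across the strains that had 2 or more arrays in every group compared. A strain was called lower or higher at an adjusted p under 0.05. The fit was tested on simulated data. Pairs were compared with Python 3.11.15 (numpy 2.4.6, scipy 1.17.1).

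All 7 mutants are named. In each of 4 lists of related genes, up to 4 members called at 20 µM or in growth are named by size, or else the 2 largest; POL3, POL2, POL32 and RAD10 were added after their values were seen. The members and lists were chosen with earlier results of these data known. Other centring, scaling, fits, filters, probe rules, a replicate block and leaving out each array were tried. Genes of the lists without a name in the table were not analysed here.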

Additional observations from a re-analysis of the deposited data

How the results depend on the processing

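Outside the fits that left out an array, 213 values of the members kept their direction and side of the threshold, 10 turned and 1 was no longer called. APN2 at 20 µM was called in 7 of 11 alternatives, with adjusted p from 0.0118 to 0.204 (limma). Members called at 20 µM fell from 1 to 0 with the compared arrays alone in the fit and to 0 without any one 20 µM array; in growth they went from 0 to 1, APN2, without array 3. No member passed a score limit of 1 or 2. With arrays centred, or centred and scaled, NTG1 at 20 µM was 0.0038 and 0.0099, NTG2 at 20 µM 0.032 and 0.045, UNG1 in growth −0.028 and −0.033, and NTG1 at 20 minus 12 µM 0.085 and 0.11. Arrays were not paired by replicate number, as no label says that a number marks a shared culture. Deviations of same-numbered arrays correlated at r of 0.162, −0.084 and −0.156 between 20 µM and growth. Between 20 and 12 µM r was −0.150 and −0.273, and between 12 µM and growth 0.015 and −0.055. Deviations within a group constrain each other, so these values cannot show whether a culture was shared. With a replicate block no call of a member changed, APN1 at 12 µM was −0.14, NTG1 at 20 minus 12 µM 0.033, and 27 strains were called at 12 µM. Leaving out 1 array gave −0.28 to 0.11 for NTG2 and −0.12 to 0.18 for UNG1 at 20 µM. At 12 µM it gave −0.046 to 0.19 for APN1, −0.19 to 0.051 for NTG1, −0.49 to 0.20 for OGG1 and −0.048 to 0.33 for UNG1. In growth it gave −0.20 to 0.12 for APN1, −0.15 to 0.035 for OGG1 and −0.29 to 0.28 for MAG1. For 20 minus 12 µM it gave −0.13 to 0.11 for NTG1, −0.10 to 0.60 for OGG1 and −0.29 to 0.093 for UNG1. Strains called over the whole pool, 1194 at 20 µM, 44 at 12 µM, 1244 in growth and 0 between concentrations, ranged over 735 to 971, 4 to 14, 481 to 829 and 0 to 37 on leaving out 1 array. At 12 µM they were 20 with arrays centred and scaled, 160 with the compared arrays alone and 67 with complete probes. Between the concentrations they were 125 with arrays centred and scaled, 5 with robust eBayes, 16 with strains on all arrays and 8 with complete probes. The complete-probe setting was chosen after seeing the data, and the cause of these changes was not tested. The number of arrays limits precision, and at 12 µM a fit without 1 array assumes that the lone array varies like the other groups.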

Other observations

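The strains of the genes next to the 7 members on the chromosomes, 14 in number by RefSeq's annotation, gave values for 12. At 20 µM 6 of these 12 were lower and 1, RAD27, was higher by limma, beside 13.8% and 12.5% of all strains, while the member beside them was called in the case of APN2 alone. Without array 1, 2 or 3 of 20 µM the numbers lower were 2, 5 and 2. The lowest were PEX15, next to NTG2, at −1.28 ± 0.69 (adjusted p = 0.00839, limma), APT1, next to UNG1, at −1.06 ± 0.51 (adjusted p = 0.0384), COX15, next to MAG1, at −0.83 ± 0.39 (adjusted p = 0.0359) and SYN8, next to NTG1, at −0.69 ± 0.13 (adjusted p = 0.00212). The calls of APT1, COX15 and DDI1 were each lost without 20 µM array 1 or 3 (adjusted p up to 0.209, 0.160 and 0.0902, limma), and that of PRR1, next to APN1, at −0.44 ± 0.19, without any one 20 µM array (adjusted p up to 0.185, limma). MAG1 and DDI1, which lie next to each other, scored −0.46 ± 0.23 and −0.45 ± 0.17, and DDI1 was called lower (adjusted p = 0.0157, limma). PIF1, a helicase gene next to OGG1, had a growth score of −2.45 ± 0.44 (n = 2, adjusted p = 0.00202, limma), against −0.03 ± 0.21 for OGG1.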
